A study of Mus musculus with 12 samples.

Results

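The genes described are 10 that encode the desmosome of stratified epithelia: the desmogleins Dsg1a, Dsg1b, Dsg2 and Dsg3, the desmocollins Dsc2 and Dsc3, plakoglobin (Jup), the plakophilins Pkp1 and Pkp3, and desmoplakin (Dsp). They were taken by name from 21900 protein-coding genes of the GRCm38 annotation. ESRP1 contacts with their RNA come from enhanced crosslinking and immunoprecipitation (eCLIP), in which ultraviolet light fixes a protein to the RNA it touches and reverse transcription tends to stop at the contact. Epidermis was taken from back skin of mouse pups on postnatal day 1 that carry a FLAG tag on both copies of endogenous Esrp1 (genotype Esrp1FLAG/FLAG), and no untagged animals were analysed here. The study has 6 FLAG immunoprecipitations and 6 matched inputs, all of this genotype and age. The values are 3 lists of contact sites of 1 nt each, called by the authors with input: list 1 on replicates 1 and 2, list 2 on replicates 3 and 4, and list 3 on replicates 5 and 6.

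Desmosomes are the adhesive plates that hold keratinocytes together against mechanical load. The cadherins of both families, desmogleins and desmocollins, cross the membrane and bind their counterparts on the next cell, the armadillo proteins plakoglobin and plakophilins cluster them from inside, and the plakin desmoplakin ties the plate to keratin filaments. In skin, Dsg1 and Dsc1 are known mainly from the upper layers and Dsg3 and Dsc3 from the lower ones, while Dsg2 and Dsc2 are the forms of simple epithelia and heart. ESRP1 is an epithelial RNA-binding protein best known for setting the choice of alternative exons.

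ESRP1 sites were present on 8 of the 10 transcripts, and 7 had at least 1 contact region found in all 3 lists. A region is a run of sites at most 10 nt apart on the strand of the gene, and regions from several lists were treated as the same when no more than 10 nt separated them. Of all protein-coding genes, 34.8% had a site on their strand and 17% such a region, and of those with spans in the range of these genes 18.6% had such a region. Of protein-coding genes with any site, 48.8% had one, against 7 of 8 here. Expression was not measured, so a transcript with few sites and a transcript with little RNA cannot be told apart. The genes were chosen with these results known, so their count is a description and was not tested.

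The 10 genes held 204 of 73602 sites in list 1, 111 of 40014 in list 2 and 192 of 53864 in list 3. All of them lay on a single strand in each gene. These sites formed 127 regions over the lists, of which 39 were in all 3 lists and 68 in 1 list. Exactly the same nucleotide was called in all 3 lists at 68 positions, which was 33.3% of the genes' sites in list 1, 61.3% in list 2 and 35.4% in list 3. Over the whole lists these shares were 19.8%, 36.4% and 27.1%. The latter take in every site, also outside protein-coding genes and on either strand, so the sets are not alike. The lists give no read counts, so depth is unknown, and SDs are over lists that each pool a pair of biological replicates. With 3 lists, no paired comparison of genes can reach a two-sided exact permutation p below 0.25, and none was run.

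**Figure D1:**
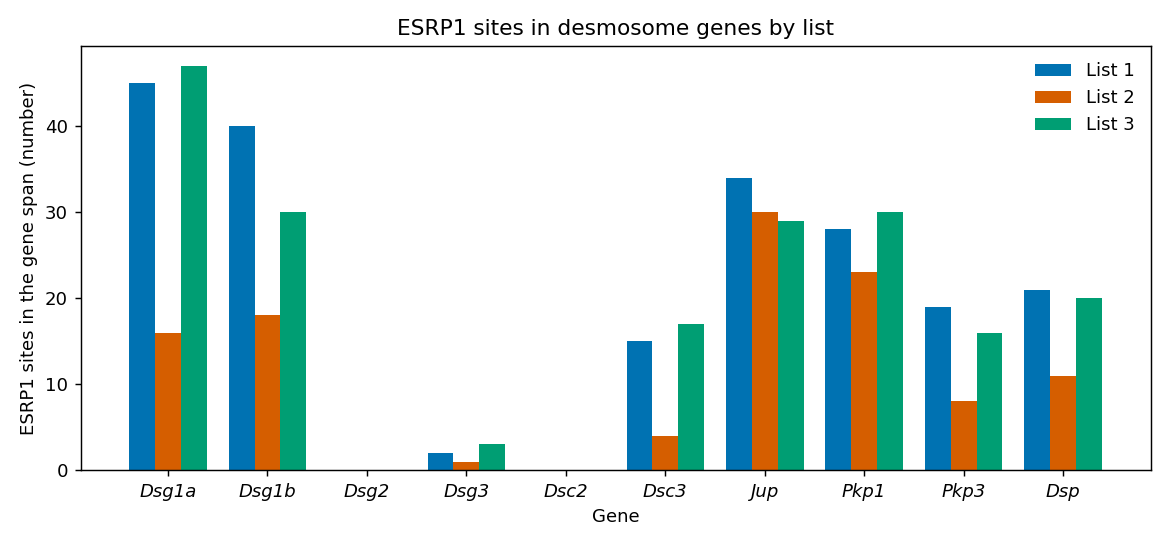
Number of ESRP1 sites (vertical axis) in the span of each desmosome gene (horizontal axis), with 1 bar for each list of the authors. Dsg1a has the tallest bar in lists 1 and 3, Jup has the tallest in list 2, and Dsg2 and Dsc2 have no bar because no site was called there.

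Dsg1a (chromosome 18, 20310873 to 20343353), which encodes one of the mouse copies of desmoglein 1, held 45, 16 and 47 sites in lists 1, 2 and 3 (36 ± 17.3, SD, n = 3 lists). The low value was that of list 2. The gene had 8 regions in all 3 lists, and 0.0685% of protein-coding genes had 8 or more. Its region with the highest scores covered 20343008 to 20343021, 332 nt before the 3′ end of the span. The highest score there was 306 in list 1, 149 in list 2 and 232 in list 3, each above at least 98.8% of all regions of its list. Its weakest, near 30.2% of the way along the span, scored 1.32, 3.92 and 46.6, so that only list 3 placed it high. A further 7 regions were found in 2 lists, and in each of them it was list 2 that lacked a site. Without list 2, 15 regions of Dsg1a were thus common to the others.

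Dsg1b (chromosome 18, 20376729 to 20412183), a neighbouring copy of the same gene, held 40, 18 and 30 sites (29.3 ± 11.02). It too had 8 regions in all 3 lists. Its best region covered 20409103 to 20409105, 3078 nt before the 3′ end, with highest scores of 153, 116 and 130. Close to the end, at 338 nt from it, lay a region of 8 nt with scores of 110, 69.2 and 94.3. The site counts of both copies overlapped between lists, and neither copy was consistently the higher: list 2 gave Dsg1b the larger count and lists 1 and 3 gave it to Dsg1a.

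Dsg3 (chromosome 18, 20510274 to 20541310), the desmoglein of the lower epidermal layers and the main antigen of pemphigus vulgaris, held only 2, 1 and 3 sites. No region was in all 3 lists, and 2 were in lists 1 and 3, the last of them 118 nt before the 3′ end with scores of 2.31 and 17.7. No site was called on Dsg2 (chromosome 18, 20558074 to 20604526), the desmoglein of simple epithelia, in any list. Within this gene cluster the sites therefore lay almost wholly on the Dsg1 copies.

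Among the desmocollins, Dsc2 (chromosome 18, 20030633 to 20059554) had no site in any list. Dsc3 (chromosome 18, 19960930 to 20002410), the form of the lower layers, held 15, 4 and 17 sites (12 ± 7). Both of its regions in all 3 lists lay in the last 1000 nt. The one 153 nt before the 3′ end covered 19961083 to 19961090 and scored 54.3, 26.3 and 53.6. The other, 969 nt before the end at 19961899 to 19961907, scored 94.7, 16.0 and 106. Of protein-coding genes, 6.48% had 2 or more such regions. Another 8 regions of Dsc3 were each found in 1 list, 4 of them in list 1 and 4 in list 3.

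Jup (chromosome 11, 100368856 to 100397839) encodes plakoglobin, the armadillo protein that links the cadherin tails to desmoplakin and also joins adherens junctions. Its sites numbered 34, 30 and 29 (31 ± 2.65), with the lists close together. It had 9 regions in all 3 lists, the most of these genes, and 0.0411% of protein-coding genes had 9 or more. Per length this was 3.11 regions in 10 kb of span, against 2.46 in Dsg1a and 2.26 in Dsg1b. The regions of Jup ran over 90.6% of its span. Its best region lay near the 5′ end, 894 nt from it, at 100396930 to 100396945, with scores of 118, 67.6 and 93.8. In the middle of the span, regions at 100383547 to 100383548 and 100383608 to 100383612 lay 60 nt apart, and the latter scored 100, 57.3 and 96.2. Toward the 3′ end, 1835 nt from it, a single nucleotide at 100370691 was called in each list, with scores of 76.7, 39.7 and 58.0.

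List 2 differed from the others on Jup in layout more than in number. Of 17 regions of Jup found in 1 list, 15 came from list 2, and 14 of these were single sites. Their scores ran from 0.0184 to 16.3, and the highest exceeded 52.9% of all regions of that list. Pkp1 showed 9 list 2 regions among 15, whereas Dsg1a and Dsc3 had none. Over the 10 genes 45.6% of regions in 1 list were those of list 2, and over all protein-coding genes 36.4%.

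Pkp1 (chromosome 1, 135871394 to 135919207) encodes plakophilin 1, which stabilises desmosomes of the upper epidermis. It held 28, 23 and 30 sites (27 ± 3.61) and 7 regions in all 3 lists, where 0.146% of protein-coding genes had 7 or more. All of these lay toward the 3′ end, within a stretch of 20.6% of the span. A pair 11 nt apart, just past the joining distance, lay nearest the 3′ end. The member of that pair at 135872606 to 135872612 scored 127, 59.0 and 114, and its neighbour at 135872592 to 135872595 scored 118, 61.3 and 106. Farthest from the end, at 11065 nt, was a region of low scores in lists 1 and 3 (0.794 and 1.57) and 15.8 in list 2.

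Pkp3 (chromosome 7, 141078229 to 141090511), the plakophilin present in nearly all epidermal layers, is the shortest of these genes and held 19, 8 and 16 sites (14.3 ± 5.69). It had 2 regions in all 3 lists. One covered 141090409 to 141090421, 90 nt before the 3′ end, with scores of 182, 59.3 and 121. The other lay in the interior at 141084827 to 141084831 and scored 27.6, 43.7 and 78.1. Of the 15 regions of Pkp3 over the lists, 10 were in 1 list.

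Dsp (chromosome 13, 38151294 to 38198577) encodes desmoplakin, the plakin without which keratin filaments do not attach to the plate. Its sites numbered 21, 11 and 20 (17.3 ± 5.51), and each list joined them into 7 regions. Of its regions, 3 were in all 3 lists, and 2.63% of protein-coding genes had 3 or more. The strongest covered 38198413 to 38198426, 151 nt before the 3′ end, and scored 153, 90.4 and 167. The next, 652 nt before the end, scored 90.1 in list 1 and 48.3 in list 3, but 0.458 in list 2. The interior one at 38180234 to 38180247 scored 66.3, 20.03 and 52.0.

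**Figure D2:**
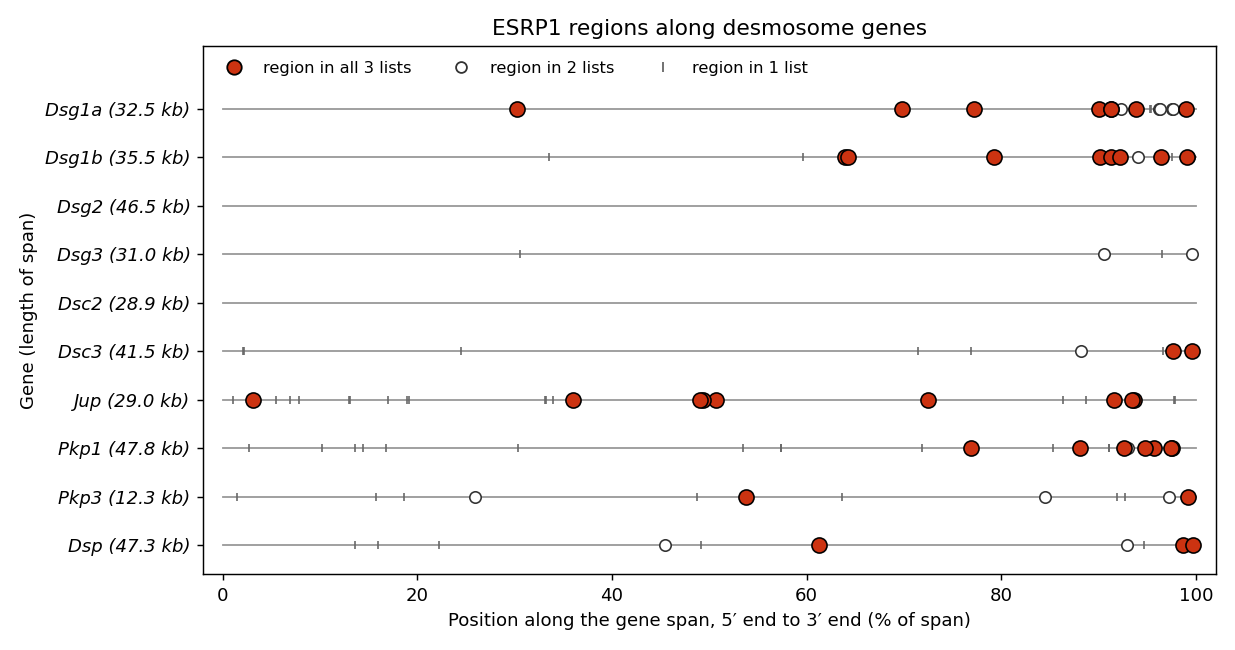
Position of every ESRP1 region along the span of each desmosome gene, from the 5′ end to the 3′ end (horizontal axis, % of span; one line per gene, with its length in kb). Filled circles are regions found in all 3 lists, open circles those in 2 lists and ticks those in 1 list; filled circles crowd toward the right in most genes but are spread along Jup.

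Regions in all 3 lists gathered in the final part of these genes. Of the 39, 23 (59.0%) lay in the last 10% of the span, against 38.9% of 2294 such regions in protein-coding spans of similar length and 36.2% over all spans of at least 4000 nt. The last 10% held 5 of 8 in Dsg1a, 5 of 8 in Dsg1b, 5 of 7 in Pkp1, 2 of 3 in Dsp, both in Dsc3 and 1 of 2 in Pkp3, but 3 of 9 in Jup. Without the Dsg1 copies, whose counts may not be independent, 13 of 23 regions (56.5%) lay there. In a fixed window of 1000 nt the genes did not stand out. That window held 7 of 39 regions (17.9%, 95% exact binomial interval 7.54 to 33.5, counting error only), against 24% in spans of similar length and 20.2% over all spans. The interval takes regions as independent, which those of the Dsg1 copies may not be. The first 1000 nt held 1, in Jup, where 9% of all such regions lay. Which regions fall in exons, introns or coding parts is not given, because exon positions were not used here.

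Spacing and scores of the regions were compared with those of all protein-coding genes. Another region in all 3 lists lay within 100 nt of 8 of the 39 (20.5%), against 9.38% of 6175 regions in all protein-coding genes. These 8 were 4 pairs, 2 in Jup, 1 in Dsg1a and 1 in Pkp1, and the pairs in Dsg1a and Pkp1 lay only 12 and 11 nt apart. Both merged when sites up to 20 nt apart were joined, which left 4 of 37 (10.8%), against 4.89% of 6099. The highest score of a region was turned into a percentile among all regions of its list and averaged over the lists. Its median was 86.5 over the 39 regions, with a range of 20.5 to 99.2, and 70.5 over those of all protein-coding genes. By gene the median was 91.1 in Dsg1a, 90.3 in Dsg1b and 88.7 in Pkp3, and between 77.5 and 80.1 in Jup, Pkp1, Dsp and Dsc3. The lists disagreed most on a Jup region at 100370761 to 100370767, which was above 95.05% of regions in list 1 and 92.8% in list 3 but above only 2.93% in list 2.

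**Figure D3:**
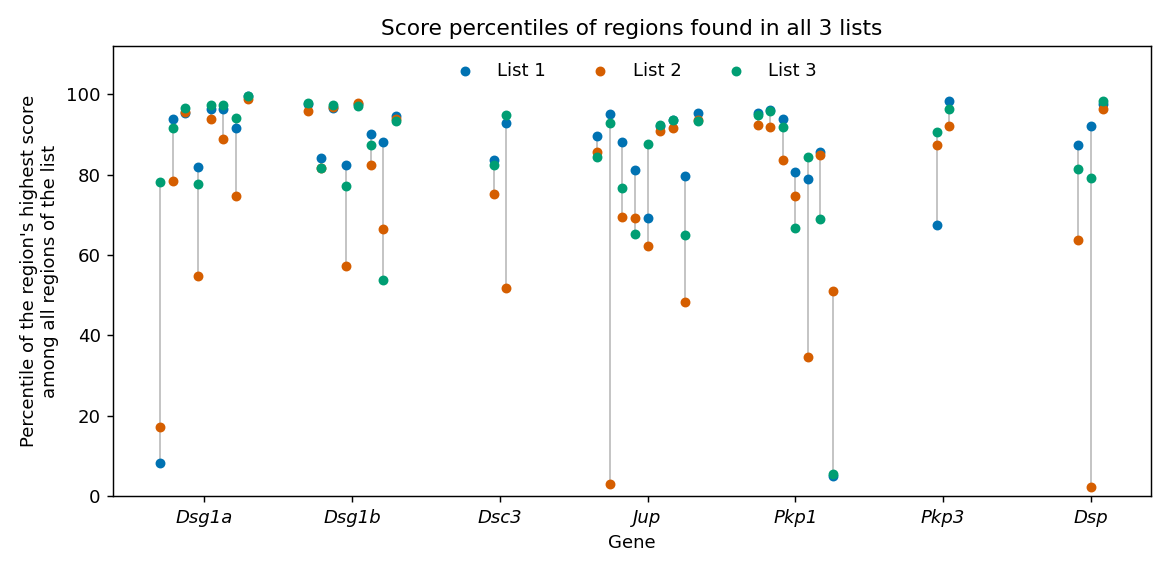
Percentile of the highest score of each region found in all 3 lists, among all regions of the same list (vertical axis), for the 7 desmosome genes with such regions (horizontal axis). Each vertical line is 1 region, in genomic order, and its points are the lists; most points lie above 60, and long lines mark regions that 1 list placed far from the others, such as the Jup region at 2.93 in list 2.

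The copies Dsg1a and Dsg1b carried sites in the same fine pattern over part of their length, but their whole layouts were not identical. Positions were compared by moving Dsg1a onto Dsg1b by the shift that matched most called nucleotides, counted over all lists. The best shift matched 13 nucleotides exactly, of 57 called in Dsg1a and 46 in Dsg1b, and all of them lay within 750 nt. The best shifts of other pairs matched 2 nucleotides between Dsg1a and Dsg3, 2 between Dsg1b and Dsg3 and 0 between Dsc2 and Dsc3, which had few or no sites to match. With Dsg1c, a further copy of desmoglein 1, the best shift matched 8 nucleotides of Dsg1a and 9 of Dsg1b (20 and 15 over several shifts). The 8 lay within 17 nt, so matching was not limited to Dsg1a and Dsg1b. The 20 include a run of 5 nucleotides within 5 nt, which a shift can align with any other such run. The 9 were spread over 4302 nt, and another shift matched 6 within 17 nt. After the 13 nucleotides matched between Dsg1a and Dsg1b were set aside, another shift of this pair matched 8 within a cluster of 17 nt. One more matched 5 spread over 928 nt. Together the 3 shifts between Dsg1a and Dsg1b matched 26 nucleotides, 45.6% of those in Dsg1a and 56.5% of those in Dsg1b. Later shifts with fewer than 5 matches were not followed, so shorter common stretches are not counted in these shares. The later shifts and the pairs with Dsg1c were added after the data were seen.

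Of the 8 regions of each copy in all 3 lists, 3 held a matched nucleotide in a region of the other copy that was also in all 3. With lists 1 and 3 alone, 7 regions paired in this way, of 15 in Dsg1a and 11 in Dsg1b. Leaving out list 2 thus raised the paired regions and the totals alike. The highest Dsg1a region, 332 nt before the 3′ end, was not among them. A Dsg1b region in all 3 lists lay 338 nt before its own 3′ end. The shifts used matched no nucleotide between it and that Dsg1a region. The last of the 3 shifts matched 1 nucleotide of it to another Dsg1a region, of 1 nt, 318 nt before the 3′ end. That Dsg1a region was found in lists 1 and 3 only. Whether the Dsg1b region corresponds to the highest Dsg1a region was not tested.

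Scores at matched nucleotides were in no case equal. In the 17-nt cluster, 7407 nt from the 3′ end of Dsg1a and 7366 nt from that of Dsg1b, both copies were called at 18 of 24 combinations of nucleotide and list, neither at 5, and only Dsg1b at 1. The score in Dsg1b was higher in 18 of those 18, by a median factor of 1.09 and a range of 1.05 to 4.15. These are neighbouring nucleotides of 1 region in 3 lists, so they do not count as 18 separate comparisons. At the third called nucleotide of the cluster the scores in Dsg1a were 116, 81.9 and 125 in lists 1, 2 and 3, and at its counterpart in Dsg1b 122, 97.7 and 133. Under the first shift both copies were called at 26 combinations and 1 copy alone at 5, the median ratio of Dsg1b to Dsg1a was 1.05, and Dsg1b was higher in 15. The ratios there ran from 0.151 to 22.4. The shift with 5 nucleotides went the other way: both copies were called at 4 combinations and 1 copy alone at 6, the median ratio was 0.396 (0.238 to 0.688), and Dsg1b was higher in 0 of 4. The sources used here do not say how reads that fit both copies were placed. The counts of either copy are uncertain for that reason, and the part of shared reads in the matching pattern was not tested.

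**Figure D4:**
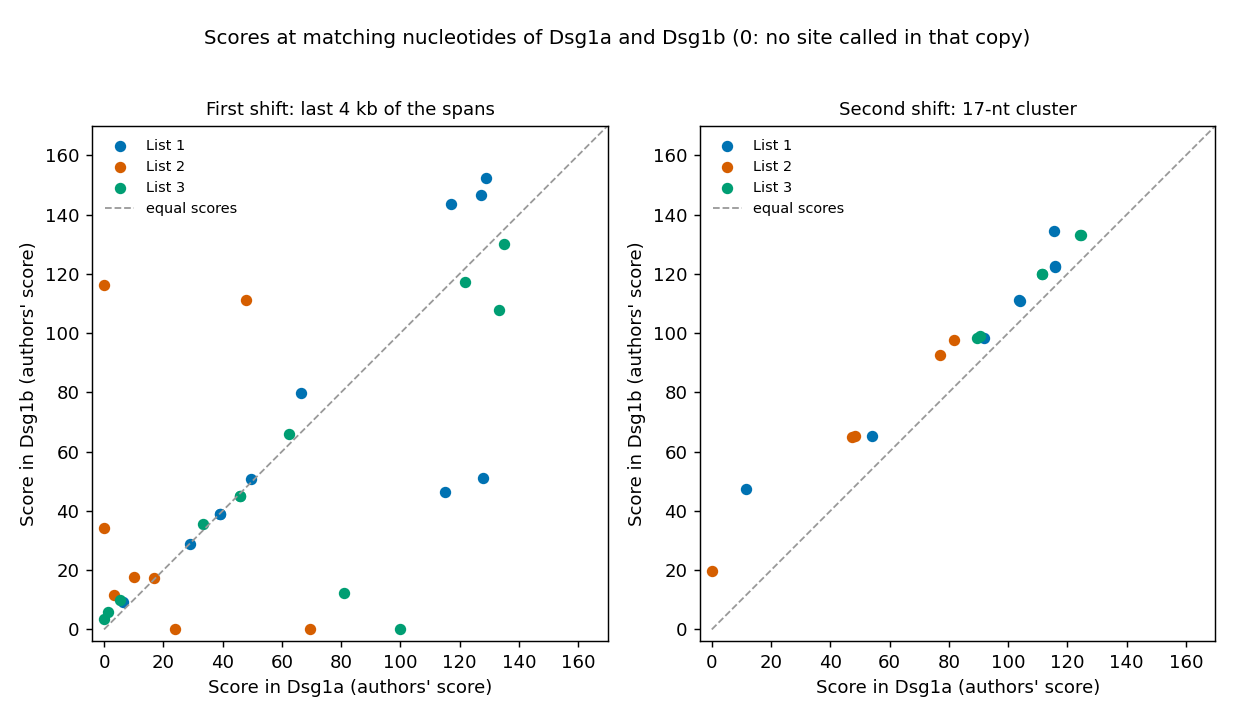
Authors' score at matching nucleotides in Dsg1a (horizontal axis) and Dsg1b (vertical axis), coloured by list, for the first shift (left) and the 17-nt cluster of the next shift (right); 0 means that no site was called in that copy. Points of the 17-nt cluster lie above the dashed line of equal scores, while the first shift also holds points far from it.

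Other desmosome and plakin genes were contacted too. Of 14 in a list of such genes, 11 had a region in all 3 lists and 2, Dsg4 of the hair follicle and Pkp2 of simple epithelia and heart, had no site. Of all protein-coding genes 17% had such a region, and of those with any site 48.8%. The median was 2 regions per gene, against 2.5 over the 10 genes above and 0 over all protein-coding genes. Plec, a cytolinker of hemidesmosomes, had 8 regions. Dsg1c, another copy of desmoglein 1, and Dsc1, the desmocollin of the upper layers, had 6 each, and Perp, a small membrane protein of desmosomes, had 4. Ppl (periplakin) had 3, and Evpl (envoplakin), Macf1 and Eppk1 had 2 each. Of 6 proteases and inhibitors that act on desmogleins all had at least 1 region, with 4 in the corneodesmosome protease gene Klk7 3 in that of its inhibitor, Spink5, and 2 in the membrane protease gene Adam10. Of 9 adherens junction genes, the most similar group, 7 had such a region, with 13 in Ctnnd1, 4 in Cdh1 (E-cadherin), 3 each in Afdn and Nectin1 and 2 in Ctnnb1.

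Of 7 keratin genes whose filaments attach to desmosomes, 3 had a region in all 3 lists: Krt5 had 7, Krt15 had 3 and Krt77 had 1. Krt14, Krt1 and Krt2 had no site. Epidermal origin of the contacted RNA could be checked only by such contacts, which are not expression levels. Of 8 keratinocyte markers 6 had a site and 3 a region in all 3 lists. Of 20 markers of other skin cells, 7 had a site and 3 such a region (Mitf of melanocytes, Sparc of fibroblasts and Csf1r of immune cells). Over all protein-coding genes 34.8% had a site and 17% such a region, which is near the shares of these 20.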

How the data were processed

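The authors deposited 3 lists of sites, each 1 nt wide with a strand and a score of no stated scale; per the file headers, they were called with input. Tools in the submitters' processing notes are HISAT2 2.1.0, cutadapt 1.16 and HOMER, and the builds are GRCm38 and mm10, all without roles. For calling settings, duplicate removal and reads with several alignments, the sources used here give nothing. Because calls pool replicates, spread between libraries is hidden.

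Here sites were joined and shared within 10 nt in Python 3.11.15, inside RefSeq gene spans of GRCm38.p6 (1-based coordinates). The strand came from RefSeq promoter entries (Jup, Dsp) or the majority of sites. For Dsg2 and Dsc2 neither gave a strand and plus was set by default, but no site lay on either strand there. The joining and sharing of sites and the search for the best shift were tested on simulated data, and the other steps were not. No test between groups was run. Genome sequence and exons were not used here, so the planned motif count was not run. The genes and lists were chosen with earlier results of these data known. Named genes were the 10, with genes of the desmosome, keratin, adherens junction and protease lists that had at least 2 shared regions or no site; regions were the highest, near an end or matching between copies; others, such as Krt77, the marker genes and the lowest regions, were named after their values were seen. Alternatives were other joining and sharing distances, higher-scoring sites, each list left out, and regions under no other gene.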

Additional observations from a re-analysis of the deposited data

How the results depend on the processing

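The number of desmosome genes with a region in all lists used was 7 to 8 and their regions numbered 34 to 57 over the alternatives tried, the highest value of each without list 2. List 2 set several counts: without it Dsg1a had 15 regions in place of 8, Pkp3 had 4 in place of 2, and Dsg3 had 2 in place of 0. The share of regions near the 3′ end was 17.9% in the last 1000 nt and 59.0% in the last 10% of the span, a wider window in these genes. The nucleotides matched by the best shift between Dsg1a and Dsg1b numbered 10 among the 50% of sites with the highest scores and 15 with a tolerance of 10 nt, against 13. Joining sites within 20 nt took the share of regions with a neighbour within 100 nt from 20.5% to 10.8%, since pairs merged. Of 129 combinations of result and alternative, 125 stayed within 1.5 times the count or within the interval of the share. Part of these could not change, so the number is no measure of stability. Dsg2 and Dsc2 had no site, and no region of these genes lay under another gene span. The search for shifts does not use the joining or sharing distance. No paired analysis was possible because each list pools replicates and inputs have no list of their own. Depth per library is unknown, so the absence of sites on Dsg2 and Dsc2 cannot be told apart from low coverage.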

Other observations

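Dsg1c, on chromosome 18, carried the same 17-nt cluster as Dsg1a and Dsg1b, in a comparison added after the data were seen. All 8 nucleotides matched between Dsg1a and Dsg1b were also called in Dsg1c in list 1, with 6 of them in list 2 and 6 in list 3. Against Dsg1a, 22 of 24 combinations of nucleotide and list were called alike. In 17 of the 18 combinations with a score in each copy, Dsg1a was lowest and Dsg1c highest. Again these are neighbouring nucleotides of 1 cluster in 3 lists, not separate comparisons. At the third nucleotide of the cluster, for example, list 1 gave 116 in Dsg1a, 122 in Dsg1b and 140 in Dsg1c. The cluster lay 5774 nt from the 3′ end of Dsg1c. How reads common to the copies were placed is not known here, and their part in this order was not tested. Between the desmocollin genes Dsc1 and Dsc3 the best shift matched 4 nucleotides within 4 nt. This was 1 run of adjacent nucleotides, which a shift can align with any other such run, so it does not show a common layout.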
